A study of Mus musculus with 12 samples.

Results

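Chemokines are small secreted proteins that draw leukocytes along a gradient, and 10 genes that encode them and are known from lung epithelium were examined: Ccl2, Ccl7, Ccl20, Cxcl1, Cxcl2, Cxcl5, Cxcl15, Cxcl9, Cxcl10 and Cxcl16. They are 10 of 21627 protein-coding genes of the annotation used. For each gene, all accessible regions that touched the gene or the 10 kb on either side of it (its locus) were taken, which gave 25 of the 83727 regions of the series. Of these 25 regions, 3 lay within 10 kb of a pair of chemokine genes and are described once.

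Chromatin accessibility had been measured by Omni-ATAC-seq, a method in which a transposase inserts sequencing adapters into accessible DNA of permeabilised nuclei. The cells were alveolar type II (AT2) cells, the epithelial cells that make surfactant and renew the alveolus. BALB/c mice aged 6 to 8 weeks had received 800000 labelled 4T1 cells, a mammary carcinoma line of the same strain, or labelled CT26 cells, a colon carcinoma line of that strain, by tail vein, and lungs were taken 7 days later. AT2 cells of the niche around metastases, or of lung distal to them, were sorted, 50000 cells per library with 5 lungs pooled per sample, which gave 4 groups (4T1 distal, 4T1 niche, CT26 distal and CT26 niche) of 3 independent samples. All 12 samples came from tumour-bearing lungs, so the distal groups are lung of injected mice and not healthy lung, and each model rests on a single tumour line. GEO's labels call the libraries transcriptomic, although the protocol they give is ATAC-seq.

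Chemokines act in families. Ccl2 and Ccl7 signal through Ccr2 to monocytes, Ccl20 through Ccr6 to lymphocytes and dendritic cells, Cxcl1, Cxcl2 and Cxcl5 through Cxcr2 to neutrophils, Cxcl9 and Cxcl10 through Cxcr3 to activated T cells, and Cxcl16 through Cxcr6 to T cells. Epithelial cells switch many of these genes on during inflammation, largely through NF-kB, and Cxcl9 and Cxcl10 through interferon signalling, while Cxcl15 (lungkine) is a neutrophil chemokine made mainly by lung epithelium.

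The deposited lists held 42067 to 66911 peaks per library. The 4T1 niche libraries held the most (63722 to 66911), followed by 4T1 distal (56330 to 58237), CT26 niche (51005 to 55529) and CT26 distal (42067 to 50093), and the chemokine regions called per library numbered 19 to 23, 16 to 18, 15 to 19 and 13 to 15 in these groups. The lists hold no read counts, so depth is unknown, and lengths under peaks were scaled to the total covered length of each library before any test. This scaling matters for the direction of small changes: the median niche against distal change of all loci over both models was -0.04 on the log2 scale with it and 0.15 without it, and of the loci that passed in that comparison 62.8% were higher in the niche with it and 99.4% without it. The loci of all 10 AT2 markers examined had a peak in all 12 libraries. So did 4 of the 9 loci listed for macrophages and monocytes (Csf1r, Ly6c2, Cd68 and Lyz2). The same held for 2 of 5 loci of the neutrophil list (Csf3r and Elane) and 2 of the lymphoid list. These lists do not tell which cells carry a peak. Adgre1 and Marco of the macrophage list, S100a9 of the neutrophil list, and Cd3d and Ms4a1 of the lymphoid list had no peak in any library.

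Of the 25 chemokine regions, 13 were called in all 12 libraries and are called constant here (52%, beside 42.1% of all regions), 9 in 2 to 11 libraries and 3 in a single library (12%, beside 15.3%). 6 genes had a peak in their locus in every library: Cxcl1, Cxcl2, Cxcl5, Cxcl15, Cxcl10 and Cxcl16. Ccl20 had one in 10 libraries, Ccl2 and Ccl7 in 3, and Cxcl9 in 1. The plot of length under peaks by library shows these levels for each gene.

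**Figure D1:**
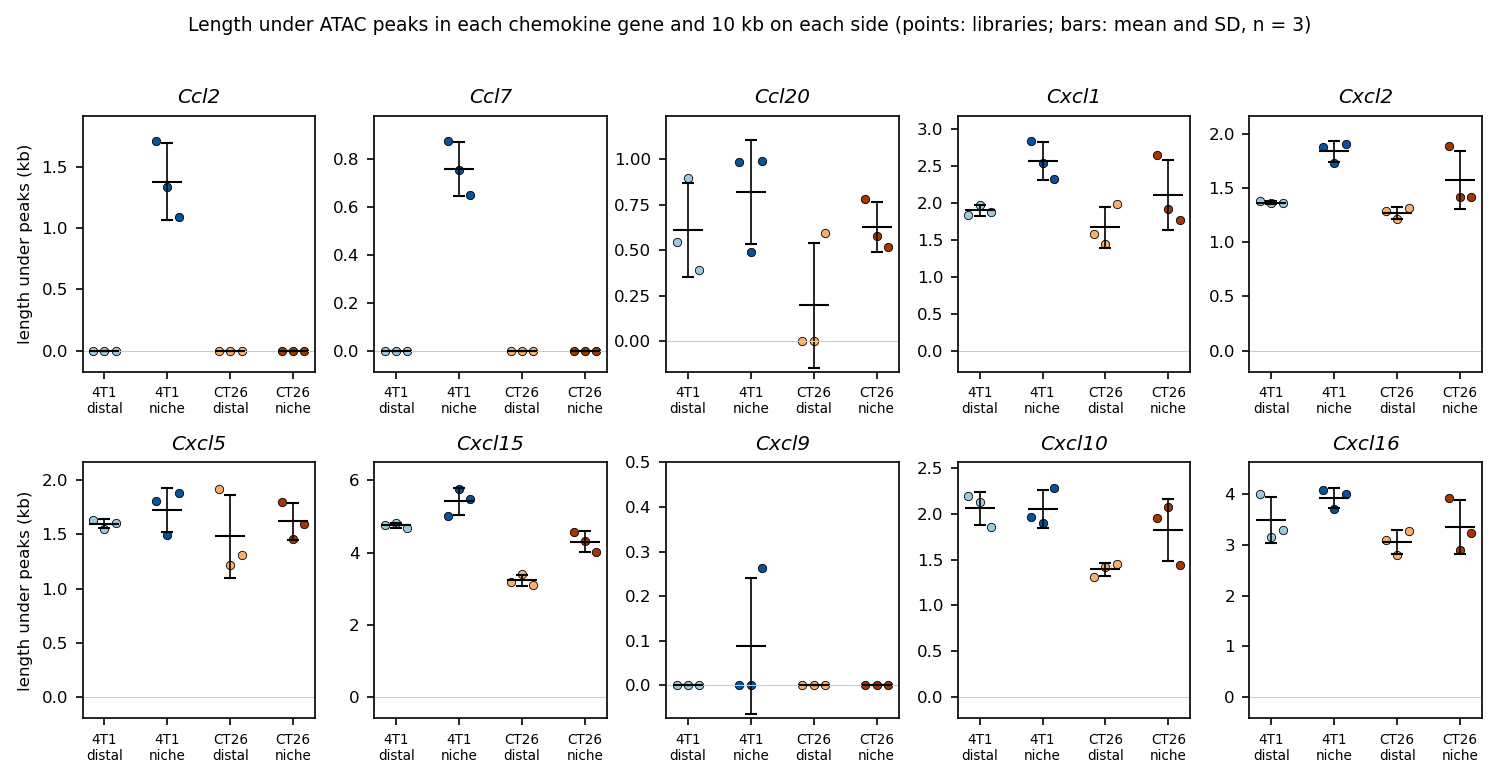
Length under ATAC peaks (kb, linear axis, a separate scale for each gene) in each chemokine gene and 10 kb on each side, by group. Points are the 12 libraries and bars the mean ± SD (n = 3): Ccl2 and Ccl7 leave 0 in the 4T1 niche libraries and in no others, at 1089 to 1710 bp and 651 to 877 bp, while Cxcl15 is covered by 3112 to 5765 bp in every library.

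The promoters of 4 chemokine genes that carry matches to inflammatory motifs are shown, because their state differed between genes while it hardly differed between groups. Each is 300 bases from 250 before to 50 after the annotated start, 5′ to 3′ on the gene's strand, from RefSeq (GRCm38.p6). Capitals mark matches to the NF-kB motif, except that the first run of capitals in Cxcl10 marks a match to the interferon-stimulated response element (ISRE). Cxcl1 is at chr5:90890995-90891294 on the plus strand, Cxcl2 at chr5:90903649-90903948 on the plus strand, Cxcl10 at chr5:92348840-92349139 on the minus strand and Ccl20 at chr1:83116516-83116815 on the plus strand.
Cxcl1: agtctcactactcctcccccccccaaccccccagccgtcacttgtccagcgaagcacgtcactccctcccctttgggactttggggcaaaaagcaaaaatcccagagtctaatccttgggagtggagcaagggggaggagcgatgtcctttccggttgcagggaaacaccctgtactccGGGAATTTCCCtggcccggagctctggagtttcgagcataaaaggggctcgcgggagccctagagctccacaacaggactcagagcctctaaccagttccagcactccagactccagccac
Cxcl2: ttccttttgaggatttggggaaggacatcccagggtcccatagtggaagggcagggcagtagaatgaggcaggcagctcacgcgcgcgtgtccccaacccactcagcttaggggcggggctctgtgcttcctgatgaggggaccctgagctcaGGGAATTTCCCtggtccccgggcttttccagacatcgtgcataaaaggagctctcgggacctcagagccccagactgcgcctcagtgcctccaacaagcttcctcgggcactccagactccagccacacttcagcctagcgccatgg
Cxcl10: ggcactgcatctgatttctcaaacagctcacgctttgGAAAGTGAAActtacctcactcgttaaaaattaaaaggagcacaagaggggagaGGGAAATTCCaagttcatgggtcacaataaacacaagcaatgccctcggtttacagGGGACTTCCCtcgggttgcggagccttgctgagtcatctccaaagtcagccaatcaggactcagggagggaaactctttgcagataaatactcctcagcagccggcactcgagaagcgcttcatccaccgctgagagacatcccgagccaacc
Ccl20: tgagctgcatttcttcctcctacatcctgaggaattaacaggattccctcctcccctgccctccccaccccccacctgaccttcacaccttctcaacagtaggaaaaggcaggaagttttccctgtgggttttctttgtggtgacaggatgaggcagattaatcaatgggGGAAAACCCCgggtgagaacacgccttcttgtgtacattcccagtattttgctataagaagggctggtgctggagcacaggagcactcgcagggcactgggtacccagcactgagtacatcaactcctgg

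Promoter sequences were matched for 6 of the 10 genes, the 4 above with Cxcl15 and Cxcl9. Peaks covered all 300 bases of the Cxcl1, Cxcl2 and Cxcl15 promoters in 12 of 12 libraries. The Cxcl10 promoter was covered in full in 11 libraries and over 283 bases in CT26 distal replicate 1. No library had a peak over the promoter of Ccl20 or of Cxcl9. Over 32619 promoters of all genes, 39.8% had a peak in all 12 libraries and 51.2% in none.

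NF-kB matches, counted from the first base of the match to the annotated start, lay at -71 and -70 in Cxcl1 and at -97 and -96 in Cxcl2. These are overlapping matches within one shared run, GGGAATTTCCC. Cxcl10 had NF-kB matches at -159 and -103 and Ccl20 had one at -80. The same motif, by its usual degenerate form on both strands, was found in 4.51% of 32851 promoters. The ISRE was found in Cxcl10 at -213 and in 3.44% of promoters. Of the other motifs, AP-1 (TGANTCA, 7.81% of promoters) matched Cxcl10 at -74 and Cxcl9 at 31, C/EBP (TTGCNNCAA, 2.08%) matched Cxcl1 at -170, and GAS (TTCNNNGAA, 8.3%) matched none of the 6, while Cxcl15 held no match to any of the 5 motifs. The motif at -80 of Ccl20 thus lay in a promoter without a called peak, and those of Cxcl1 and Cxcl2 in promoters called in every library. These matches are letters in a window and were not tested as sites.

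The monocyte chemokines gave the clearest difference between groups. Ccl2 (chr11:82035577-82037452), the main ligand of Ccr2, had 1710, 1333 and 1089 bp under peaks in the 4T1 niche libraries (1377 ± 313, SD, n = 3) and 0 in each of the other 9 libraries. Ccl7 (chr11:82045712-82047525), a second Ccr2 ligand, lies 8.26 kb above Ccl2 and had 877, 754 and 651 bp in the 4T1 niche libraries (761 ± 113) and 0 in the other 9. The groups did not overlap at either gene. In the fit over 16819 loci with limma, both differed between 4T1 niche and 4T1 distal libraries, with an adjusted p of 0.000521 for Ccl2 and 0.00365 for Ccl7. They were 2 of the 9 chemokine loci tested, and 0.624% of all loci passed in this comparison. No fold is given, since the distal value is 0. Groups without any peak have no spread, so these p-values may be too small, and both loci passed the filter of a peak in at least 3 libraries through the 4T1 niche libraries alone. Without 4T1 niche replicate 1, 2 or 3 that filter removed both loci. With a filter of at least 2 libraries, Ccl2 had a limma adjusted p of 0.0015 to 0.00344 and Ccl7 of 0.00953 to 0.0113 in these fits. Both entered them through the remaining 4T1 niche libraries alone, so these values are not independent support.

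Ccl2 and Ccl7 are not separate observations. The Ccl7 locus held a single region, and it is shared with Ccl2: chr11:82038521-82039397, 1.07 kb above the upper end of Ccl2 in the interval between both genes. It was covered by 877, 754 and 651 bp in 4T1 niche replicates 1, 2 and 3. A second region, chr11:82032786-82033421, lay 2.16 kb below Ccl2 and overlapped no annotated gene, with 583, 579 and 438 bp in the same libraries. Neither was called in any other library. Another, chr11:82035343-82035592, spanned the lower end of Ccl2 itself over 250 bp and was called in 4T1 niche replicate 1 only. The map of the Ccl2 and Ccl7 interval shows that the flanks of Ccl2 and not its body held the recurrent peaks.

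**Figure D2:**
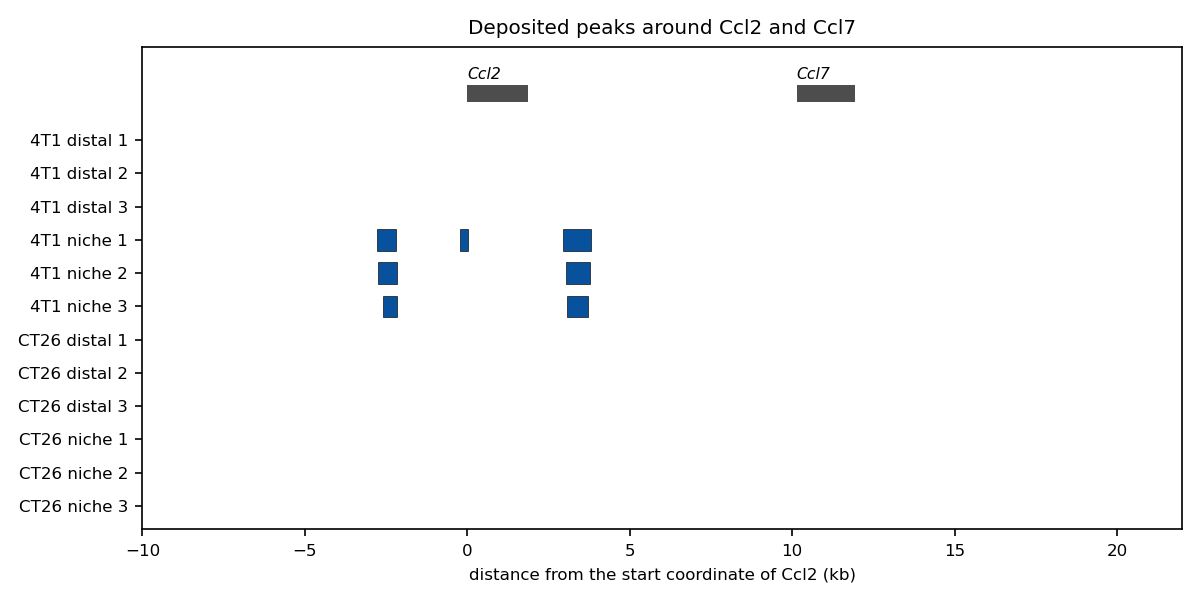
Map of the Ccl2 and Ccl7 interval by library, with distance from the start coordinate of Ccl2 (kb) on the x axis, 1 row per library, gene bodies drawn to scale and bars for called peaks. Peaks appear in the 4T1 niche rows alone, 2.16 kb below Ccl2 and 1.07 kb above it in all 3 libraries and at the lower end of Ccl2 in replicate 1.

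Being called in all 3 niche and no distal library of the 4T1 model was true of these 2 of the 25 regions (2.59% of all regions), and being called in all 3 niche libraries of 4T1 and in no library of any other group likewise of 2 (1.44% of all regions). No chemokine region was called in all niche and no distal libraries of CT26 (1.56% of all regions), nor in all distal and no niche libraries of 4T1 (0.143%) or CT26 (0.136%). In a limma fit per region over 64948 regions, 21 of the 25 chemokine regions could be tested, and 3 passed for 4T1 niche against distal (2.69% of all regions tested). The region below Ccl2 passed with an adjusted p of 0.000401 and the region between Ccl2 and Ccl7 with an adjusted p of 0.000159 (limma). Both entered this fit through the 4T1 niche libraries alone, and the fit per region was chosen after these lengths were seen, so the p-values describe the regions and are not independent support. The last was a region near Cxcl15, given further on.

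The niche libraries of CT26 had no peak at Ccl2. The limma test of the 4T1 niche effect minus the CT26 niche effect gave an adjusted p of 0.0222 for the Ccl2 locus, which was 1 of 9 chemokine loci to pass (0.0595% of all loci), and 0.076 for Ccl7. Per region, it gave 0.00706 below Ccl2 and 0.00313 between Ccl2 and Ccl7, 2 of 21 chemokine regions (1.79% of all regions). The limits above hold here too: these loci and regions were tested only because the 4T1 niche libraries held them, and the groups at 0 have no spread. The locus result was close to the threshold. Leaving out 4T1 distal replicate 1, 2 or 3, or CT26 niche replicate 2 or 3, gave a limma adjusted p of 0.0744, 0.056, 0.0577, 0.0604 and 0.0575. With 2 kb flanks it was 0.0626. Without any 1 of the 4T1 niche libraries, the filter of 3 libraries removed the locus and both regions. With the filter at 2 libraries, leaving out 4T1 niche replicate 1, 2 or 3 gave 0.0553, 0.0583 and 0.0342 (limma) for the locus. Both regions stayed past the threshold in those fits, and without any 1 library outside the 4T1 niche at the filter of 3.

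The peaks around Ccl2 were of low rank in their lists. The authors' fold enrichment was 3.63 to 5.07 below Ccl2 and 2.85 to 4.12 between Ccl2 and Ccl7. By -log10 p, these peaks lay at percentiles 21.5 to 46 and 4.36 to 28.6 of each 4T1 niche list. When every list was limited to its 42067 strongest peaks, the length of the shortest list, 2 of the 3 niche libraries of 4T1 kept the region below Ccl2 and none kept the other, and neither locus could be tested. A minimum -log10 q of 5 gave the same counts, 2 and 0. The difference in the number of peaks between groups therefore moves with this result, and its part in it was not tested.

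Sorted cells are a bulk sample, so more cells of another type and more open chromatin per AT2 cell cannot be told apart. Summed length under peaks at 5 endothelial marker loci was 11.1 to 14.1 kb in the 4T1 niche libraries, above the 7.92 to 8.6 kb of 4T1 distal, 6.26 to 6.97 kb of CT26 distal and 6.56 to 9.18 kb of CT26 niche. At 6 fibroblast marker loci it was 9.76 to 10.7 kb in 4T1 niche, 5.08 to 8.15 kb in 4T1 distal, 3.91 to 5.67 kb in CT26 distal and 6.83 to 12.1 kb in CT26 niche. The 9 macrophage and monocyte loci summed to 13.5 to 14.2 kb in 4T1 niche and 13.6 to 14.4 kb in 4T1 distal libraries. In CT26 they summed to 6.11 to 9.04 kb in distal and 8.69 to 12.6 kb in niche libraries. Adgre1 and Marco were at 0 throughout, and Lyz2 had the longest mean of these loci (4067 bp). The 5 neutrophil loci summed to 2.56 to 2.96 kb in 4T1 niche, 2.07 to 2.31 kb in 4T1 distal, 0.826 to 2.1 kb in CT26 distal and 1.51 to 2.23 kb in CT26 niche libraries, with S100a9 at 0. Mammary epithelial loci (4 genes), which 4T1 cells could carry, summed to 14.3 to 14.7 kb in 4T1 niche and 10.5 to 14.4 kb in 4T1 distal libraries. In CT26 they summed to 6.16 to 9.86 kb in distal and 8.26 to 14.2 kb in niche libraries. Elf5 made up most of this, with a peak in all 12 libraries and means of 9706 bp in 4T1 niche and 7654 bp in CT26 niche. Krt14 had a peak in 1 library. These sums are as deposited and rise with the length of the lists. On scaled lengths the median 4T1 niche against distal change was 0 after rounding for the endothelial loci, with 4 of 5 above 0. For the 2 neutrophil loci tested it was 0.08, with 2 above 0. It was -0.07 for the 6 macrophage and monocyte loci tested, beside -0.05 for all loci. The fibroblast median was higher, at 0.52, with 5 of 6 loci above 0. For the 3 mammary loci tested it was 0.16, with 2 above 0. No locus of these lists passed within 4T1. Over both models, Pecam1 (limma adjusted p 0.0432) and Twist1 of the fibroblast list (0.0448) passed as higher in the niche. So did Pdpn, 1 of 6 alveolar type I markers (0.65 ± 0.11, 0.0196), which also passed within CT26 (0.0364). Sftpb, 1 of 10 AT2 markers, passed as lower in the niche (-0.36 ± 0.07, limma adjusted p 0.0249). Of the endothelial loci, Pecam1 had 6667, 4466 and 5284 bp in 4T1 niche libraries and 2485, 2528 and 2657 bp in 4T1 distal libraries. The part of these cell types in the Ccl2 peaks was not tested.

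Ccl20 (chr1:83116766-83119167), the ligand of Ccr6, had no peak over its body. Its locus was covered by 544, 898 and 393 bp in 4T1 distal, 982, 488 and 988 bp in 4T1 niche, 0, 0 and 594 bp in CT26 distal and 782, 577 and 519 bp in CT26 niche libraries. The groups overlapped in both models. The recurrent region, chr1:83119695-83120535, lay 0.528 kb above the gene and was called in 10 libraries, all but CT26 distal replicates 1 and 2. A second region 8.3 kb above was called in 4 libraries, 2 of 4T1 distal and 2 of 4T1 niche, and in no CT26 library. The niche effect in CT26 was 0.77 ± 0.31 (log2 of scaled length plus 500 bp, with its standard error) at a limma adjusted p of 0.218. It passed only in the fit without CT26 distal replicate 3, the one distal library of that model with a peak.

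None of the 9 chemokine loci tested passed for CT26 niche against distal, where 0.672% of all loci passed. Apart from Ccl2 and Ccl7, 7 chemokine loci were tested, and none of them passed within 4T1 (limma adjusted p 0.357 to 0.951), within CT26 (0.218 to 0.959), over both models (0.229 to 0.739) or for the difference between models (0.737 to 0.979). Over both models, Ccl2 (adjusted p 0.00298) and Ccl7 (0.0211) were the 2 of 9 that passed, through the 4T1 libraries alone, beside 2.38% of all loci. Region by region, 8 of 21 chemokine regions passed over both models (limma), beside 10% of all regions tested: the pair around Ccl2, a region between Cxcl1 and Cxcl2, and 5 described with the constant regions.

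The neutrophil chemokines Cxcl1 and Cxcl2 are neighbours on chromosome 5, 10.8 kb apart. Cxcl2 (chr5:90903899-90905938) was covered by 1377, 1358 and 1356 bp in 4T1 distal, 1875, 1726 and 1906 bp in 4T1 niche, 1285, 1209 and 1318 bp in CT26 distal and 1885, 1417 and 1414 bp in CT26 niche libraries. As deposited, every niche library was above every distal library of its model. The share of all loci with this pattern was not counted, and without scaling the median niche change of all loci over both models was 0.15. Scaled to the covered length, the niche effect was 0.16 ± 0.07 in 4T1 (limma adjusted p 0.357) and 0.01 ± 0.07 in CT26 (0.959). Cxcl1 (chr5:90891245-90893121) was covered by 1842, 1979 and 1881 bp in 4T1 distal, 2842, 2537 and 2326 bp in 4T1 niche, 1586, 1445 and 1983 bp in CT26 distal and 2652, 1913 and 1770 bp in CT26 niche libraries. The 4T1 groups did not overlap as deposited, which was not counted over all loci either, and the CT26 groups did. Its niche effect was 0.18 ± 0.1 in 4T1 (limma adjusted p 0.432) and 0.04 ± 0.1 in CT26 (0.867).

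Both loci share a region in the interval between them, chr5:90899919-90900910, 2.99 kb below Cxcl2. It was called in all 12 libraries. It was covered by 366, 385 and 370 bp in 4T1 distal and 911, 656 and 917 bp in 4T1 niche libraries (374 ± 10 against 828 ± 149, SD, n = 3). In CT26 it was covered by 329, 274 and 362 bp in distal and 751, 488 and 456 bp in niche libraries (322 ± 44.5 against 565 ± 162). All 6 niche libraries were above all 6 distal libraries. On scaled lengths it was the only one of the 13 constant chemokine regions in which every niche library stayed above every distal library within both models, a pattern of 0.17% of the regions held by all 12 libraries.

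The limma fit per region gave this region a niche effect of 0.36 ± 0.08 over both models (adjusted p 0.0239), 0.46 ± 0.11 within 4T1 (0.0565) and 0.25 ± 0.11 within CT26 (0.23), and the difference of the effect between models did not pass (0.792). The call over both models was lost without 4T1 niche replicate 1 (adjusted p 0.0879), 2 (0.0551) or 3 (0.077), and held without each of them when the filter was set at 2 libraries in place of 3 (0.046, 0.0118 and 0.0438). With 42067 peaks per list, the effect was 0.26 and its limma adjusted p 0.53, and 1 CT26 niche library no longer held the region.

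**Figure D3:**
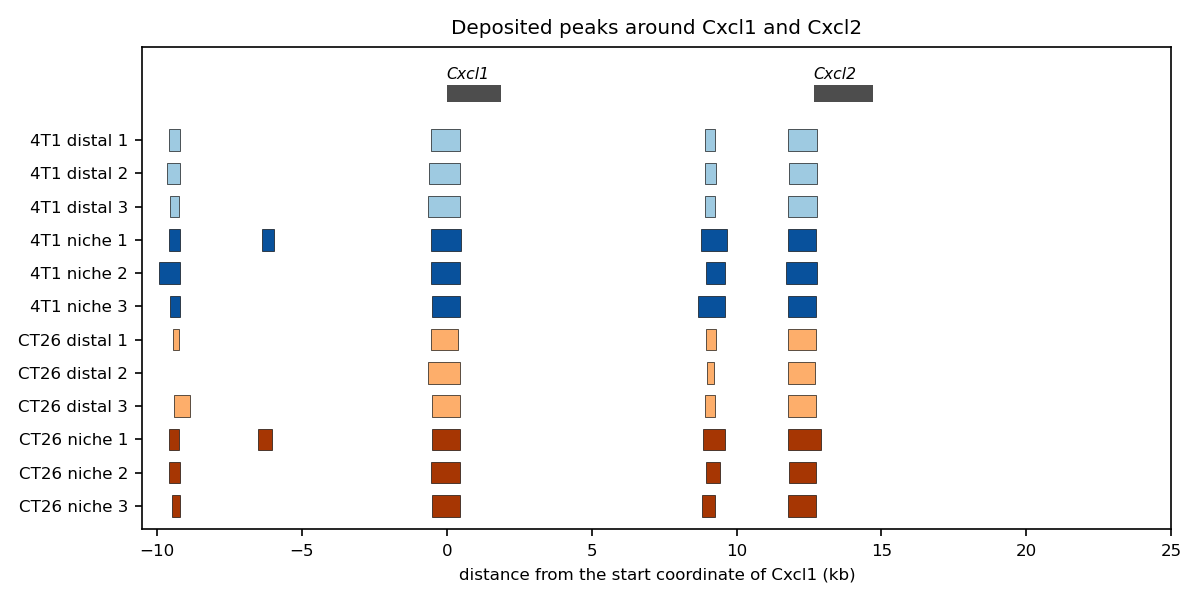
Map of the Cxcl1 and Cxcl2 interval by library, with distance from the start coordinate of Cxcl1 (kb) on the x axis, 1 row per library, gene bodies drawn to scale and bars for called peaks. The bars at the lower ends of both genes, 956 to 1103 bp and 929 to 1134 bp, are alike in all 12 libraries, and the bars between the genes are longer in the niche rows (456 to 917 bp) than in the distal rows (274 to 385 bp).

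The start of each gene behaved differently from this interval. The region at the lower end of Cxcl1, chr5:90890599-90891724, covered the promoter printed above and was 956 to 1103 bp long in all 12 libraries. Its fold enrichment was 5.81 to 7.78, and its -log10 p was among the higher ones, at percentiles 80.9 to 90.6 of each list. The region at the lower end of Cxcl2, chr5:90902949-90904141, likewise covered its promoter over 929 to 1134 bp. Below Cxcl1, a region at 8.85 kb was called in 11 libraries, all but CT26 distal replicate 2, with 205 to 704 bp where called. Another at 5.96 kb was called in the first replicate of each niche group only, over 433 and 490 bp.

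Cxcl5 (chr5:90759298-90761625), another Cxcr2 ligand, had a single recurrent region, chr5:90757916-90759922, across its lower end. It was covered by 1631, 1551 and 1606 bp in 4T1 distal, 1806, 1496 and 1593 bp in 4T1 niche, 1913, 1213 and 1310 bp in CT26 distal and 1799, 1457 and 1596 bp in CT26 niche libraries. The groups overlapped in both models. A further peak of 282 bp, 4.95 kb below the gene, was called in 4T1 niche replicate 3 only. The niche effect over both models was -0.09 ± 0.08 at the locus (limma adjusted p 0.544).

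Cxcl15 (chr5:90794534-90803067) is the longest of the 10 genes and had 5 regions. Its locus was covered by 4757, 4822 and 4691 bp in 4T1 distal, 5020, 5765 and 5495 bp in 4T1 niche, 3200, 3401 and 3112 bp in CT26 distal and 4586, 4319 and 4027 bp in CT26 niche libraries. As deposited, niche was above distal without overlap in both models, and each 4T1 group was above the CT26 group of the same site. The share of all loci with these patterns was not counted, and without scaling the median niche change of all loci over both models was 0.15. On scaled lengths the niche effect was -0.02 ± 0.08 in 4T1 (limma adjusted p 0.951) and 0.12 ± 0.08 in CT26 (0.444). Without scaling, the CT26 difference passed.

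Within the Cxcl15 locus the regions moved in different directions. The region 0.95 kb above the gene, chr5:90804017-90806664, was the longest of the 25 and had 1817, 1788 and 1986 bp in 4T1 distal, 2248, 2320 and 2572 bp in 4T1 niche, 722, 925 and 422 bp in CT26 distal and 1703, 1655 and 1272 bp in CT26 niche libraries. Niche was above distal without overlap in both models, which as deposited was true of 2 of the 13 constant regions (3.02% of all constant regions), this one and that between Cxcl1 and Cxcl2. On scaled lengths the CT26 groups stayed apart and the 4T1 groups did not. The limma fit per region gave 0.63 ± 0.16 in CT26 (adjusted p 0.0738) and 0.12 ± 0.16 in 4T1 (0.803), and the difference of these effects did not pass (0.54). The CT26 change passed without scaling (0.80, adjusted p 0.0164) and without CT26 distal replicate 2 (0.82, adjusted p 0.0217).

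The region 3.95 kb below Cxcl15, chr5:90789191-90790581, moved the other way. It had 1384, 1380 and 1366 bp in 4T1 distal, 1234, 1321 and 1166 bp in 4T1 niche, 1222, 1161 and 1265 bp in CT26 distal and 1242, 1160 and 1162 bp in CT26 niche libraries. As deposited, niche was below distal without overlap in 4T1, and the CT26 groups overlapped. On scaled lengths the limma fit per region gave -0.25 ± 0.05 in 4T1 (adjusted p 0.0128), -0.23 ± 0.05 in CT26 (0.0296) and -0.24 ± 0.03 over both (0.00435), and it was the 1 of 21 chemokine regions to pass in CT26 (2.47% of all regions). Without scaling the values were -0.11 (adjusted p 0.357), -0.02 (0.84) and -0.07 (0.246), so none passed. The 4T1 call was also lost without 4T1 distal replicate 3 (limma adjusted p 0.0604) or 4T1 niche replicate 1 (0.235), 2 (0.179) or 3 (0.252), but held without each of these niche libraries with the filter at 2 libraries (0.03, 0.0104 and 0.0329). The CT26 call was lost without 4T1 niche replicate 1, 2 or 3, CT26 distal replicate 2 or 3 or CT26 niche replicate 1 (0.0505 to 0.0741).

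Of the other Cxcl15 regions, the one at its lower end, chr5:90793718-90794904, held the promoter and was called in all libraries over 726 to 1127 bp. Its -log10 p lay at percentiles 86.8 to 93.9 of each list. One within the neighbouring gene Cxcl3, 8.09 kb below Cxcl15, was called in all libraries over 459 to 739 bp. One inside Cxcl15, chr5:90797093-90797452, was called in 4T1 niche replicates 2 and 3 (288 and 360 bp) and CT26 niche replicate 1 (229 bp), and in no distal library.

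The interferon-inducible pair Cxcl9 and Cxcl10 lie 18.6 kb apart on chromosome 5 and differed from each other in all groups. Cxcl9 (chr5:92321331-92328079) had no peak over its body or promoter in any library, and a single peak of 264 bp, 4.36 kb above it within Art3, was called in 4T1 niche replicate 3. It could not be tested. Cxcl10 (chr5:92346638-92348889) was covered by 2192, 2128 and 1852 bp in 4T1 distal, 1960, 1901 and 2284 bp in 4T1 niche, 1310, 1422 and 1448 bp in CT26 distal and 1953, 2069 and 1440 bp in CT26 niche libraries. The 4T1 groups overlapped, and so did the CT26 groups. Its regions were chr5:92348430-92349725 across its start (520 to 1252 bp) and one 3.95 kb above it within Art3 (536 to 1082 bp), both called in all 12 libraries. The niche effect was -0.17 ± 0.11 in 4T1 (limma adjusted p 0.511) and 0.07 ± 0.11 in CT26 (0.757), and it did not differ between models past the threshold (0.737).

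Cxcl16 (chr11:70454389-70459984), a chemokine made as a membrane-bound form that Adam10 can shed, was covered by 3994, 3149 and 3297 bp in 4T1 distal, 4080, 3697 and 3994 bp in 4T1 niche, 3098, 2802 and 3268 bp in CT26 distal and 3928, 2887 and 3232 bp in CT26 niche libraries. The groups overlapped in both models. Its niche effect was -0.02 ± 0.09 in 4T1 (limma adjusted p 0.931) and -0.14 ± 0.09 in CT26 (0.403). The region 1.72 kb below Cxcl16, chr11:70451731-70452667, lies in Med11, a subunit gene of the Mediator complex. It had the strongest peaks near any of the 10 genes, with a fold enrichment of 8.29 to 10.5. Their -log10 p lay at percentiles 99.7 to 100 of each list. The region across the upper end of Cxcl16, chr11:70458465-70460310, also overlaps Zmynd15 and was 1477 to 1795 bp long in all libraries. Another 9.07 kb below was called in all libraries over 346 to 808 bp, and those at 5.85 and 7.72 kb above were each called in 6 libraries. The latter was called in 2, 3, 0 and 1 libraries of 4T1 distal, 4T1 niche, CT26 distal and CT26 niche.

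**Figure D4:**
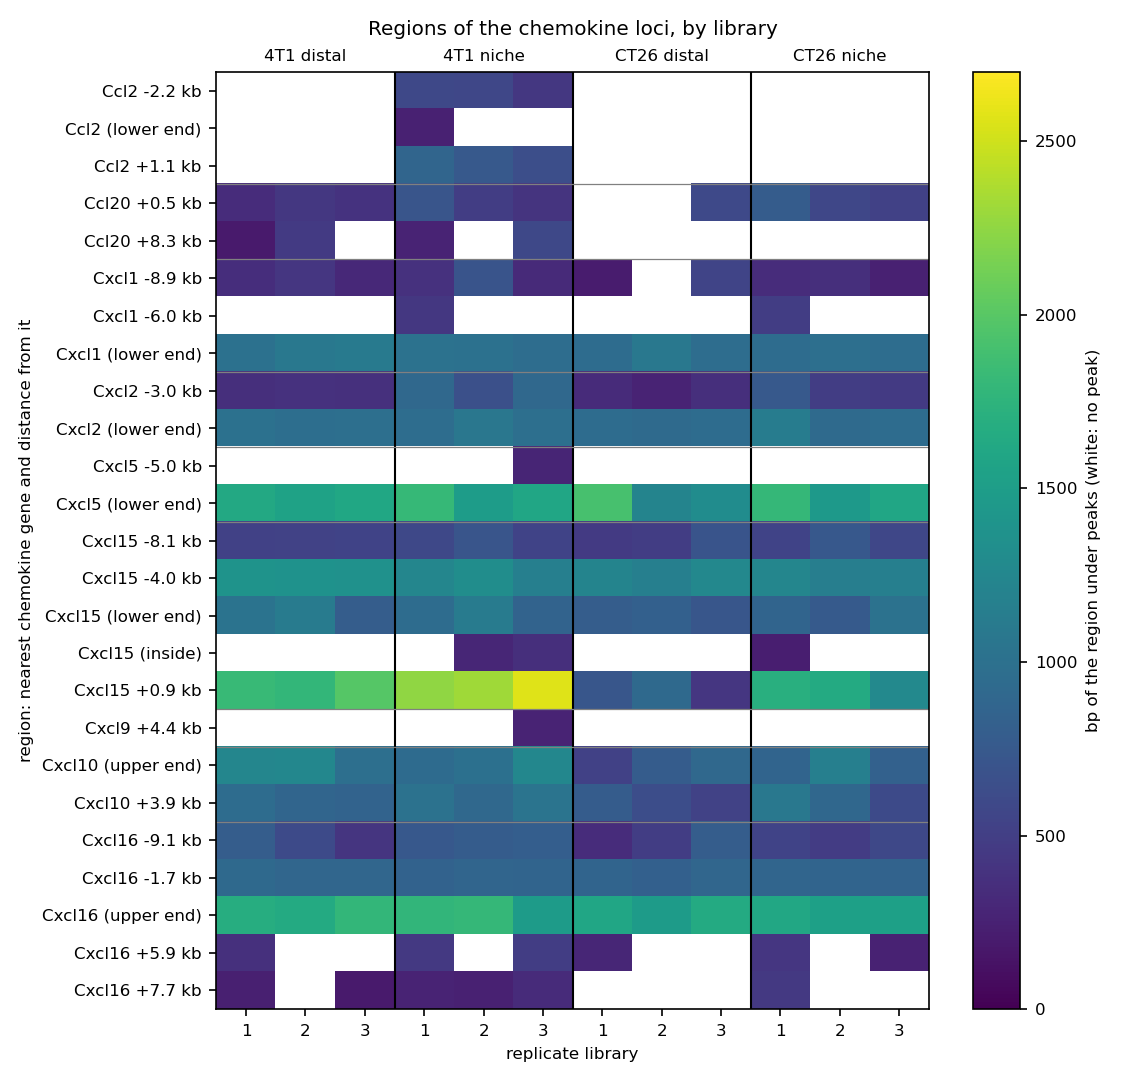
The 25 regions of the chemokine loci (rows, named by the nearest chemokine gene and distance) in each of the 12 libraries (columns, by group), with colour for the bp of the region under peaks and white where no peak was called. The 13 constant regions form full rows, and the rows below and above Ccl2 are filled in the 4T1 niche columns only.

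On scaled lengths, 5 of the 13 constant regions were lower in every niche than in every distal library within both models, beside 13.3% of all constant regions. These were the region in Med11 and that across the upper end of Cxcl16, the region 3.95 kb below Cxcl15, and those at the lower ends of Cxcl1 and Cxcl2. As deposited, this held for none of the 13, beside 0.0767% of all constant regions. The limma changes over both models were -0.17 ± 0.04 in Med11 (adjusted p 0.0239), -0.2 ± 0.05 across the upper end of Cxcl16 (0.0263), -0.21 ± 0.05 at Cxcl1 (0.0328) and -0.13 ± 0.03 at Cxcl2 (0.0429), besides that below Cxcl15. The Cxcl2 value turned to 0.04 (adjusted p 0.635) without scaling, and none of the 5 passed without scaling. The Med11 and Cxcl16 calls were also lost without 4T1 distal replicate 3 or any 1 of the 4T1 niche libraries (limma adjusted p 0.0549 to 0.0888). With the filter at 2 libraries, both held without each 4T1 niche library (0.0236 to 0.0435). The Cxcl1 call was lost without 4T1 distal replicate 2 or 3, any 4T1 niche library, CT26 distal replicate 2 or CT26 niche replicate 1 (0.0567 to 0.0958), and the Cxcl2 call without any library but CT26 distal replicate 3 (0.0535 to 0.129). With the filter at 2 libraries and a 4T1 niche library left out, Cxcl1 did not pass (0.0544 to 0.0599), and Cxcl2 passed without replicate 2 (0.0464) but not without replicate 1 (0.0716) or 3 (0.0548).

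**Figure D5:**
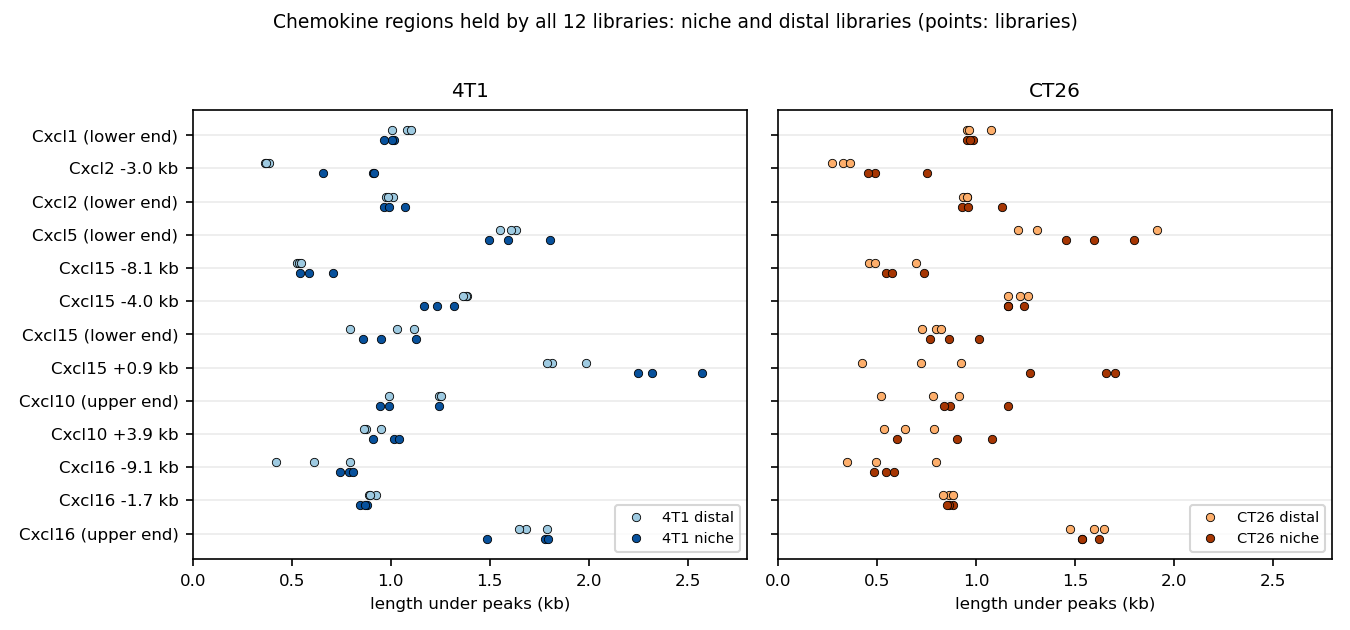
Length under peaks (kb, linear axis) as deposited in the 13 chemokine regions held by all 12 libraries, for 4T1 (left) and CT26 (right). Points are libraries, with distal above niche in each row: niche lies to the right of distal without overlap in both models for the region 2.99 kb below Cxcl2 and the region 0.95 kb above Cxcl15.

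Between the models, 3 of 9 chemokine loci passed for CT26 against 4T1 over both sites, beside 24.1% of all loci (limma). Ccl2 (adjusted p 0.00401) and Ccl7 (0.00915) were lower in CT26, which rests on the 4T1 niche libraries. Cxcl2 was higher on scaled lengths by 0.15 ± 0.05 (adjusted p 0.0483), and this turned to -0.13 (0.102) without scaling and -0.06 (0.745) with the same number of peaks per list, so no direction is given for it. Of the loci that passed, 79.6% were higher in CT26 with scaling and 0.269% without it. The tumour models were separate sets of mice, and their lists differed in length, so tumour model and list length cannot be told apart here.

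Other genes of the chemokine system were counted for comparison. Of 24 other chemokine ligands in the annotation, 16 were tested, and 8 had no peak in any library (Ccl3, Ccl4, Ccl8, Ccl11, Ccl12, Ccl19, Ccl24 and Xcl1). None of the 16 passed within 4T1 (0.624% of all loci), and 1 passed within CT26 (0.672%) and over both models (2.38%). That was Ccl6, a myeloid-attracting chemokine, with 207, 264 and 0 bp in 4T1 distal, 865, 582 and 976 bp in 4T1 niche, 0 in each CT26 distal and 718, 730 and 345 bp in CT26 niche libraries. Niche was above distal without overlap in both models, a pattern not counted over all loci. The log2 change was 1.01 ± 0.14 over both (limma adjusted p 0.00637), and the adjusted p within CT26 was 0.0364. The CT26 distal libraries, all at 0, have no spread, so these p-values may be too small. Most of the length at Ccl6 came from chr11:83597917-83598791, 4830 bp above the gene. The median change of the list over both models was 0.02, beside -0.04 for all loci. The longest mean lengths, which also depend on the length of the gene, were those of Cxcl17 (4939 bp), Cx3cl1 (3325 bp) and Cxcl3 (2855 bp).

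Of 23 chemokine receptors, 17 were tested, and Ccr1, Ccr2, Cx3cr1 and Ackr1 had no peak in any library. Ccr2, the receptor of Ccl2 and Ccl7, was thus not called in any AT2 list. Cxcr6, the receptor of Cxcl16, was the 1 receptor locus to pass within 4T1 (0.624% of all loci), with 430, 761 and 551 bp in the 4T1 niche libraries and 0 in the other 9 (limma adjusted p 0.0222). Like Ccl2, it passed the filter through the 4T1 niche libraries alone, and the other groups have no spread, so this p-value may be too small. Its region, chr9:123815223-123815983, lies 3469 bp above Cxcr6 and overlaps Fyco1. None passed within CT26 or over both models, and the median change over both was 0.06. The longest mean lengths were those of Ccr10 (3087 bp), Ccr6 (2424 bp) and Ccrl2 (2149 bp).

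All 25 inducers of chemokine genes, the receptors and factors of NF-kB, interferon and IL-17 signalling with the shedding enzymes Adam10 and Adam17, had a peak in all 12 libraries. None of them passed within 4T1, within CT26, over both models or for the difference between models, and their median change over both models was -0.04, the same as that of all loci. The longest mean lengths were those of Nfkb1 (8449 bp), which encodes an NF-kB subunit, Il1r1 (8106 bp), the interleukin-1 receptor, and Stat3 (5390 bp). Between models 5 of the 25 passed on scaled lengths (Rela, Tlr2, Tlr4, Adam17 and Zc3h12a), beside 24.1% of all loci. Rela, Tlr2 and Tlr4 were higher in CT26 on scaled lengths, but as deposited their CT26 means were below the 4T1 means of the same site.

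Among the loci most like Ccl2 over the 12 libraries, by Pearson correlation of scaled log2 length and leaving out loci that share a region with it, were Matn1, Il13, Il4 and Serpina3n (r = 0.998 to 1). For Ccl7 they were Matn1, Star, Il13, Il4 and Serpina3n (r = 0.995 to 0.998). All of these were at 0 in every library outside the 4T1 niche, so r describes that shared pattern of presence, and Il4 and Il13 had the same mean of 421 bp there. The loci most like Cxcl2 were Chrd, Dlgap1, Dolk, Lfng and Zfp804a (r = 0.868 to 0.932). These correlations are descriptions over libraries that also differ in the length of their lists.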

How the data were processed

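Peak lists of 12 Omni-ATAC-seq libraries were analysed. The authors deposited 1 list of broad peaks per library in GRCm38 coordinates, per the labels and file columns. MACS2 and bedtools appear in the submitters' processing notes with no version. Aligner, read filters and calling settings were not given in the sources used here. Used were each peak's start and end in bp and, as the authors deposited them, its fold enrichment over background, its -log10 p and its -log10 q. The deposited score column was not used. No deposited -log10 q was under 1. The labels name a target of 30000000 reads per sample, but the lists hold no counts, so depth is unknown and no counting intervals were given.

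Peaks on the 19 autosomes and X that shared at least 1 bp were joined into regions. Gene positions, and 300-base promoters for 6 of the 10 chemokine genes, came from RefSeq (GRCm38.p6). Below and above refer to lower and higher coordinates, since the gene table gives no strand. For each protein-coding gene, bp under peaks in the gene and 10 kb on each side were divided by the library's total covered length relative to the mean of all libraries, 500 bp were added, and log2 values were fitted, for loci that held a peak in 3 or more libraries, with limma 3.58.1 (R 4.3.3, 4 group means, eBayes with trend, 8 residual degrees of freedom). Benjamini-Hochberg adjusted p-values were computed over all 16819 loci, at a threshold of 0.05. Log2 changes are on this scale, which understates the change of short lengths, and are given ± standard error. The same fit per region was chosen after the lengths of these regions were seen, as was the filter at 2 libraries used when a 4T1 niche library was left out. Tables were handled with pandas 2.3.3 in Python 3.11.15, and the fits were tested on simulated data. The simulated spread was never 0, so that test does not cover loci such as Ccl2, Ccl7, Cxcr6 and Ccl6, where whole groups had no peak.

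The genes and lists were chosen with earlier results of these data known. All 10 chemokine genes were described, other pathway genes were named where they passed or had the 3 longest mean lengths of their list, and likeness was the highest 5 correlations. Cxcl11 was listed but had no match in the gene table. Some results for the lymphoid list and for likeness to Ccl2 are not reported here. Same-numbered distal and niche samples correlated at -0.0439 to 0.0891 in their deviations from group means, and other-numbered samples of a model at -0.093 to 0.092. The labels name no pairs, and replicate numbers were not taken as pairs. These correlations cannot settle whether same-numbered samples came from the same lungs, so a fit with replicate number as a block is given as an alternative. Alternatives were no scaling, 42067 peaks per list, a -log10 q of at least 5, 100 or 2000 bp added, 2 or 50 kb flanks, no filter, no trend, fits within 1 model, a replicate block and leaving out each library.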

Additional observations from a re-analysis of the deposited data

Results flagged for a closer look

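The niche effect at Ccl2 passed the test of the difference between the tumour models. The limma adjusted p was 0.0222 for the Ccl2 locus, 0.00706 for the region 2.16 kb below Ccl2 and 0.00313 for the region 1.07 kb above it. The 3 niche libraries of 4T1 carried peaks there and the other 9 libraries, all 6 of CT26 included, carried none, so the 3 values describe the same libraries and overlapping stretches of DNA. The locus and regions passed the filter of a peak in at least 3 libraries through the 4T1 niche libraries alone, and the groups without peaks have no spread, so these p-values may be too small.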

How the results depend on the processing

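Of the 9 chemokine loci tested, 2 passed (limma) for 4T1 niche against distal. This count was 0 with the same number of peaks per list and with a -log10 q of at least 5, 1 with 2 kb flanks, 1 with the replicate block, and 0 to 2 without 1 library. For CT26 niche against distal, 0 passed, 1 (Cxcl15) without scaling and 0 to 1 without 1 library. Over both models, 2 passed, 5 without scaling (Cxcl1, Cxcl2 and Cxcl15 in addition), 0 with the same number of peaks, 0 with -log10 q of at least 5, 1 with 2 kb flanks, 1 with the replicate block, and 0 to 3 without 1 library. For the difference of the niche effect between models, 1 passed, 2 without scaling, with 50 kb flanks, without a filter and without a trend, 0 with the same number of peaks, with -log10 q of at least 5, with 2 kb flanks and with the replicate block, and 0 to 1 without 1 library. For CT26 against 4T1, 3 passed (Ccl2, Ccl7 and Cxcl2), 4 without scaling (Ccl2, Ccl7, Cxcl10 and Cxcl15), 0 with the same number of peaks, 5 with 2 kb and 5 with 50 kb flanks, and 0 to 3 without 1 library. With -log10 q of at least 5, 1 passed, Cxcl16, which was not one of the 3. The Cxcl2 change in that comparison reversed from 0.15 to -0.13 without scaling and -0.06 with the same number of peaks.

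Of the 21 chemokine regions fitted, 3 passed in 4T1, 0 with the same number of peaks, and 0 to 4 without 1 library. With -log10 q of at least 5, 1 of 16 passed, the region 7.72 kb above Cxcl16. It was not one of the 3 (limma adjusted p 0.719 in the main fit), so no region around Ccl2 passed in that setting. In CT26 1 passed, and 0 did with the same number of peaks, with -log10 q of at least 5, without a filter, without a trend, with the replicate block and with only CT26 libraries, and 0 to 1 without 1 library. Over both models 8 passed, 4 without scaling, 4 without a trend, 0 with the replicate block, and 1 to 9 without 1 library. With the same number of peaks 1 passed, the region 3.95 kb below Cxcl15. With -log10 q of at least 5, 1 passed, the region 7.72 kb above Cxcl16, which was not one of the 8. For the difference between models 2 passed, 0 with the same number of peaks, 0 with the replicate block, and 0 to 3 without 1 library. With -log10 q of at least 5, 1 passed, again the region 7.72 kb above Cxcl16 and not one of the 2 around Ccl2. The region at the lower end of Cxcl2 reversed from -0.13 to 0.04 without scaling. Regions called in all niche and no distal libraries of 4T1 numbered 2, and 0 with the same number of peaks, 1 with 2 kb and 4 with 50 kb flanks, and 2 to 3 without 1 library. With -log10 q of at least 5 they numbered 1, the region 7.72 kb above Cxcl16 and not one of the 2 around Ccl2. In CT26 they numbered 0, and 0 to 1 without 1 library.

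Over all loci, 105, 113, 401, 10 and 4059 passed in 4T1, in CT26, over both models, for the difference and for CT26 against 4T1. Without scaling these were 569, 2030, 3981, 25 and 7807, with the same number of peaks 46, 83, 98, 13 and 94, and without 1 library 26 to 107, 37 to 117, 90 to 358, 0 to 18 and 2516 to 4300. In CT26, 77.9% of the loci passing were higher in the niche, and 99.2% without scaling, and in 4T1 95.2%, and 78.3% with the same number of peaks.

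With replicate number as a block, which the labels do not say pairs the samples, Ccl2 kept its 4T1 call and Ccl7 lost it (limma adjusted p 0.071), the Ccl2 difference between models had an adjusted p of 0.195, and 31 loci passed in 4T1, 8 in CT26, 81 over both models and 1 for the difference. CT26 against 4T1 could not be fitted with the block. The causes of these changes were not tested. Without read counts, a missing peak may reflect fewer reads, so an absent call is not closed chromatin, and the length of a peak is not its height.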
